A study of Mus musculus with 18 samples.

Results

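The 10 genes followed here encode jumonji histone demethylases outside the KDM3 family: Kdm2a, Kdm2b, Kdm4a, Kdm4b, Kdm4c, Kdm5a, Kdm5b, Kdm6b, Kdm7a and Phf2. They were chosen by name, as 10 listed rows of the 23899 genes in the deposited table, and all 10 passed the filter of a mean of at least 1 FPKM (fragments per kilobase of transcript, scaled to library size). The cells were mouse leukaemia cells with Cas9 and MLL-AF9, the fusion of KMT2A and MLLT3 that drives an acute myeloid leukaemia, grown in RPMI medium with 10 ng/ml mouse IL3, a myeloid growth cytokine. Each of 6 groups held 3 poly(A) RNA libraries: guide RNAs against Jmjd1c (e21.1, e20.1, e12.4 and e12.3), aimed at its zinc finger and jumonji domains, a control guide against Renilla luciferase, which mouse cells lack, and mock. The labels leave out which guide cuts which domain, how mock was treated, and whether the libraries of a group came from separate cultures. The p-values therefore measure only the spread between these libraries, which may be technical.

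Jumonji demethylases are oxygenases that use iron, oxygen and 2-oxoglutarate to take methyl groups off histone lysines, and their families differ in the lysine they act on. The KDM2 enzymes act on histone H3 lysine 36, the KDM4 enzymes on lysines 9 and 36, the KDM5 enzymes on lysine 4, Kdm6b on lysine 27, and Kdm7a and Phf2, which belong to the KDM7 family, mainly on lysine 9, with Kdm7a also acting on lysine 27. Jmjd1c belongs to the KDM3 family of lysine 9 enzymes, so the question put to these 10 genes was whether the transcripts of its relatives differ in level when Jmjd1c is targeted.

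The results turn on Kdm7a and Kdm5b. Their promoters are shown because they passed the test, the first in all libraries and the second only in alternative fits. Among those were the fits without a pair of libraries or with libraries weighted by quality. Both sequences come from the RefSeq windows of build GRCm38.p6 (250 bases before to 50 after an annotated start), trimmed to the bases upstream of the gene's annotated 5' end, and run 5' to 3' on the gene's strand. Capitals mark the CpG dinucleotides that the CXXC zinc finger of Kdm2a and Kdm2b is known to bind when unmethylated.
Kdm7a, chr6:39206790-39207023, minus strand: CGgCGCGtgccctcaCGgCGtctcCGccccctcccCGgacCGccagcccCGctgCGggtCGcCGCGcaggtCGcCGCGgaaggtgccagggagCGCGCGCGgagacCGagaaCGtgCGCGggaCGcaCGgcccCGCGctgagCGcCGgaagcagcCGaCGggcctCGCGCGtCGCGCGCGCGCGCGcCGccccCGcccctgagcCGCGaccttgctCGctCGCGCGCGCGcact
Kdm5b, chr1:134559928-134560170, plus strand: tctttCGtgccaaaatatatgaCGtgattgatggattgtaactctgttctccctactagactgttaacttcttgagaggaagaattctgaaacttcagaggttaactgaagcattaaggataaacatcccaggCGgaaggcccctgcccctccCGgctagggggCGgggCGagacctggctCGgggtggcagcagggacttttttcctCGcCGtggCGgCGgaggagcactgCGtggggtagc
The printed Kdm7a promoter holds 52 CpG in 234 bases and the Kdm5b promoter 12 in 243 bases. In the full windows of 300 bases the counts were 65 and 17, against a median of 7 over 32544 windows, and only 1 window held more CpG than that of Kdm7a. The window of Phf2, the close relative of Kdm7a, held 63. RefSeq windows were matched for 6 of the 10 genes: Kdm2b, Kdm4a, Kdm4c, Kdm5b, Kdm7a and Phf2. Motifs were searched on both strands. The STAT motif TTCNNNGAA and the PU.1 motif GAGGAAGT matched in 0 windows of these genes and in 8.3% and 3.1% of all windows. The core of the hypoxia element, ACGTG, matched in 1 of 2 windows of Kdm4c, in the 1 window of Kdm5b and that of Kdm7a, and in 19.7% of all windows. It matched in 0 of 4 windows of Kdm2b and in neither the 1 window of Kdm4a nor that of Phf2. So few windows cannot show more or fewer matches than the background for any of these motifs. The core also contains a CpG, and no background of windows with similar CpG counts was used. Both printed sequences hold that match.

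Jmjd1c itself, on chromosome 10 (67096125-67256326, plus strand), was at a mean of 78.3 FPKM in Renilla (range 64.2 to 85.4) and at 74.5 ± 2.69 in mock (SD, n = 3). Its mean was 59.8 ± 16 FPKM under e20.1, 60.5 ± 5.4 under e12.3, 67.9 ± 5.4 under e21.1 and 68.3 ± 7.69 under e12.4. The fold change of the 4 guides together was not called against Renilla (log2 fold change -0.29, limma adjusted p = 0.19) or mock (-0.23, limma adjusted p = 0.35), and a transcript level does not measure cutting of the gene, so it is no check of the labels. Estimated depth ran from 22.41 to 192.76 M reads (median 33.87). On the second principal component (21.9% of variance) e12.3 replicate 3 scored -41.1 and e21.1 replicate 3 scored -49.9, while the other 16 libraries scored 0.5 to 13. These 2 outlying libraries were, after mock replicate 1, the deepest, and results that rest on them are given with and without them. The labelled cell type was checked against 8 genes of myeloid progenitor leukaemia (Ptprc, Kit, Mpo, Elane, Cebpa, Spi1, Hoxa9 and Meis1). All 8 were tested, Hoxa9 at 90.6 ± 23.3 and Meis1 at 35.3 ± 5.56 FPKM in Renilla. Of them limma called Ptprc, the leukocyte antigen CD45, higher against Renilla (log2 fold change 0.37, limma adjusted p = 0.0099, and 0.074 without Renilla replicate 1) and Mpo, myeloperoxidase, lower (-2.09, limma adjusted p = 0.00086). Of all genes 7.77% were called higher and 3.21% lower there. Without the 2 outlying libraries limma called 1 of the 8 higher and 3 lower against each control. The shares of all genes were then 11% and 7.07% against Renilla and 9.95% and 6.31% against mock. The erythroid gene Alas2, the lymphoid genes Cd3e, Cd3g and Pax5 and the stromal genes Col1a2, Col3a1, Pdgfra and Cdh5 were under 0.1 FPKM in every library. Other genes of these lists were above that, among them Cd3d (1.06 ± 0.439 FPKM) and Pdgfrb (3.78 ± 0.61) in Renilla.

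In the Renilla libraries the 10 genes spanned a wide range of FPKM, a level per transcript length. Kdm2b was the most abundant, at 51.6 ± 13.2 FPKM (SD, n = 3), followed by Kdm4a at 37.9 ± 0.728, Kdm2a at 32.0 ± 4.52 and Kdm5a at 30 ± 1.2. Phf2 (13.8 ± 1.91), Kdm6b (12.1 ± 2.84), Kdm4b (11.2 ± 2.89) and Kdm4c (10.9 ± 0.734) came next. Kdm5b stood at 6.55 ± 0.392 FPKM and Kdm7a, the least abundant, at 2.12 ± 0.204. The libraries of Kdm2a overlapped those of Kdm5a, and from Phf2 to Kdm4c each gene overlapped the next, so those orders are not resolved. Summed over the 10 genes, the level was 205 to 212 FPKM in the 6 control libraries and 151 to 232 in the 12 guide libraries. Between Renilla and mock, limma called 0 of the 10 genes and 0% of all 11550 tested genes. At an unadjusted p under 0.05 the counts were 0 members and 127 genes (1.1%).

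**Figure D1:**
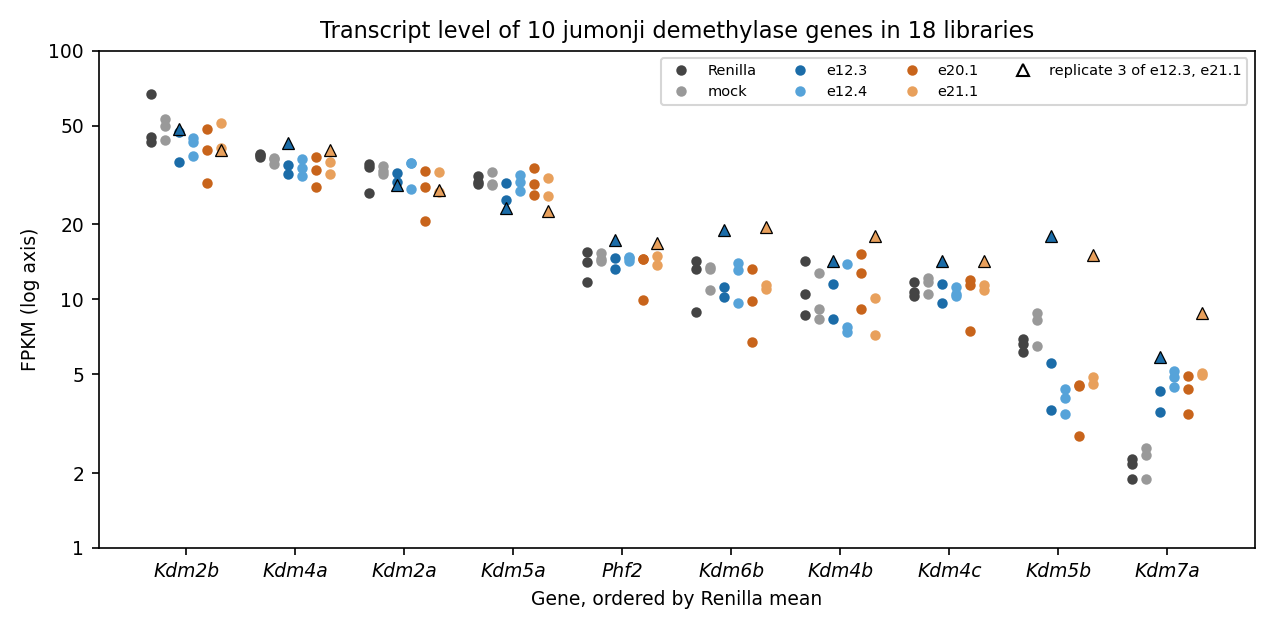
Level of each of the 10 genes in FPKM on a log axis, in the order of the Renilla mean, with 1 point per library coloured by group. Kdm7a lies at 1.89 to 2.52 FPKM in the 6 control libraries and at 3.44 to 8.77 in the 12 guide libraries, while triangles mark replicate 3 of e12.3 and e21.1, which lie above all other libraries for Kdm5b and Kdm7a.

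With all libraries weighted equally, Kdm7a was the only one of the 10 genes called. With array quality weights Kdm5b (-0.39, limma adjusted p = 0.02) and Kdm4a (-0.15, 0.014) were also called against Renilla, and Kdm5b against mock (-0.63, 0.0038). That weighted fit called far more of all genes than the equally weighted fit, and a larger share of them than of the 10 members. Kdm7a lies on chromosome 6 (GRCm38, 39136623-39206789, minus strand). Kdm7a was at 1.89, 2.17 and 2.28 FPKM in Renilla and at 2.52, 1.90 and 2.37 in mock. Under e12.3 Kdm7a stood at 4.28, 3.51 and 5.86 FPKM, under e12.4 at 4.45, 4.86 and 5.14, under e20.1 at 4.35, 3.44 and 4.91, and under e21.1 at 4.96, 5.06 and 8.77. All 12 guide libraries were above all 6 controls, which was also so for 4.92% of tested genes, and the highest guide library was e21.1 replicate 3. An estimated 510 to 6700 reads per library lay behind these values (for the longest transcript of 9566 bases).

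Kdm7a rose with the 4 guides from 2.12 ± 0.204 FPKM in Renilla (n = 3) to 4.97 ± 1.38 (n = 12), a log2 fold change of FPKM + 1 of 0.91 (SE 0.15, 95% interval 0.59 to 1.23, limma adjusted p = 0.00074). On that scale, which understates changes of genes near 1 FPKM, the fold was 1.88. Against mock, where Kdm7a was at 2.26 ± 0.324 FPKM, the log2 fold change was 0.85 (SE 0.15, limma adjusted p = 0.0015). Both comparisons share the guide libraries. Of all tested genes, limma called 11% in either direction and 7.77% higher against Renilla, and 9% and 6.84% against mock. The count of 1 member of 10 is therefore near the background. By size of the log2 fold change Kdm7a ranked 314 of 11550 genes and 269 of the 897 called higher. The exact two-sided permutation test over 455 arrangements gave p = 0.0022 against each control, the smallest p it can give. It treats the 12 libraries of 4 guides as exchangeable replicates.

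**Figure D2:**
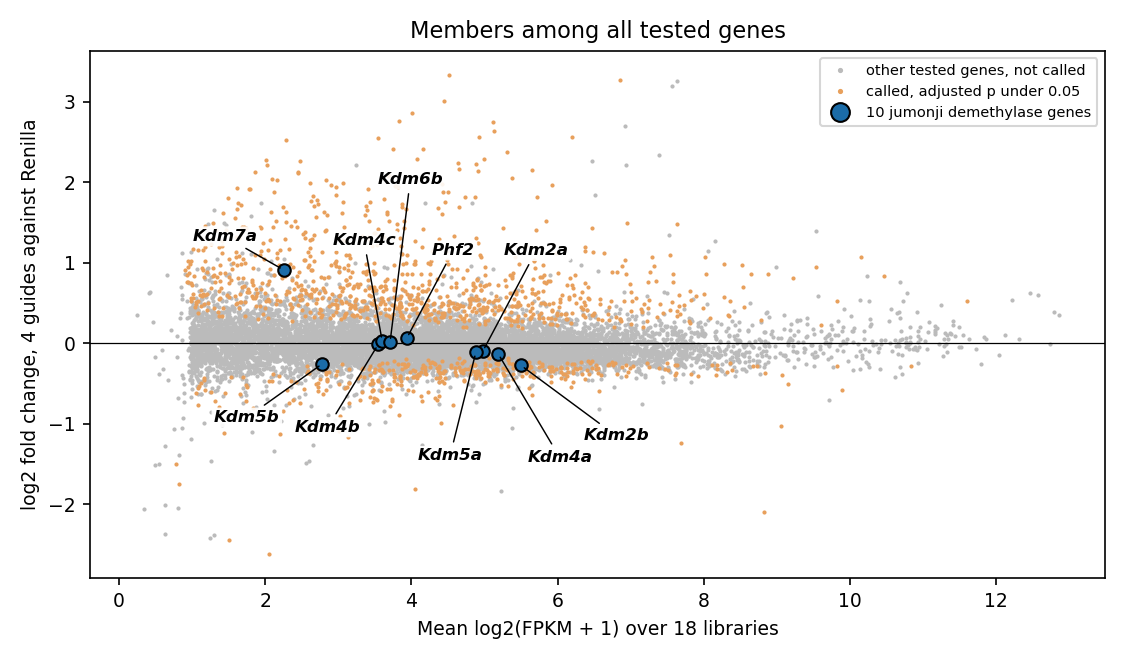
Log2 fold change of the 4 guides against Renilla for all 11550 tested genes against their mean log2(FPKM + 1) over 18 libraries, with called genes in orange and the 10 jumonji demethylase genes as large blue points. Kdm7a stands at 0.91 among the called genes and the other 9 lie between -0.27 and 0.06.

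Each guide gave a higher Kdm7a level than Renilla: the log2 fold changes were 0.81 for e12.3 (limma adjusted p = 0.025), 0.90 for e12.4 (0.0073), 0.74 for e20.1 (0.031) and 1.18 for e21.1 (0.00071). In these 4 equally weighted comparisons Kdm7a was the single member called, and the shares of all genes called higher were 3.03%, 5.57%, 4.61% and 7.06%. Against mock, Kdm7a was called with e12.3 (0.75, limma adjusted p = 0.045), e12.4 (0.84, 0.013) and e21.1 (1.12, 0.0013), where 2.82%, 5.22% and 5.91% of all genes were called higher. Under e20.1 it missed the threshold (0.68, limma adjusted p = 0.052; 4.41% of all genes called higher), and with a pseudocount of 0.1 it was called there (0.87, limma adjusted p = 0.035). The e12.3 and e20.1 calls against Renilla were each lost without any 1 Renilla library or without replicate 1 or 3 of the guide (adjusted p = 0.064 to 0.12), and the e12.3 call against mock without any 1 mock library or the same guide replicates (0.097 to 0.21). The e12.4 call against mock was lost without e12.4 replicate 2 (0.052) or 3 (0.059) or mock replicate 2 (0.07). Those of e12.4 against Renilla and of e21.1 against both controls were kept in all 6 such fits.

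Kdm7a levels were also compared between guides. Between the pair e20.1 and e21.1 and the pair e12.3 and e12.4, named for their shared starts, the difference was 0.10 (95% interval -0.18 to 0.39, limma adjusted p = 1), which leaves room for a difference of up to that size. In this comparison limma called 0 of the 10 members and 0% of all genes, with 0 members and 179 genes (1.55%) at an unadjusted p under 0.05. When the 2 outlying libraries were left out, the change of Kdm7a was 0.81 against Renilla (SE 0.10, limma adjusted p = 5.4e-05) and 0.75 against mock (limma adjusted p = 0.00011), and every guide was called against both controls. In those single-guide fits the shares of all genes called higher against Renilla were 7.8% for e21.1, 7.59% for e20.1, 8.8% for e12.4 and 5.05% for e12.3, and against mock 7.06%, 7.13%, 8.15% and 4.78% in the same order.

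Phf2, the other gene of the KDM7 family among the 10 (chromosome 13, 48801750-48871119, minus strand), was not called. Phf2 was at 11.7 to 15.5 FPKM in Renilla, 14.2 to 15.4 in mock and 9.91 to 17.4 in the 12 guide libraries, ranges that overlap. Its log2 fold change was 0.06 against Renilla (95% interval -0.17 to 0.30, limma adjusted p = 0.78) and -0.03 against mock (-0.26 to 0.21, limma adjusted p = 0.92). The difference between the log2(FPKM + 1) values of Kdm7a and of Phf2 was -2.39 to -2.14 in the 6 control libraries. In the 12 guide libraries it was -1.66 to -0.87. The groups did not overlap, but neither did they for Kdm7a alone. How many other gene pairs separate in this way was not counted. The difference was 0.85 higher with the guides than in Renilla (exact two-sided permutation p = 0.0022 over 455 arrangements, the smallest possible). The libraries of the 4 guides were again taken as exchangeable. This test was chosen after the values were seen. With ranges that do not overlap it could only give its smallest p, which Kdm7a alone also gave. The test therefore adds no evidence beyond the levels of Kdm7a.

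Kdm5b, a lysine 4 demethylase on chromosome 1 (134560171-134635285, plus strand), was the most variable of the 10 genes. It was at 6.92, 6.58 and 6.14 FPKM in Renilla and at 8.84, 6.46 and 8.26 in mock. Under e12.3 Kdm5b stood at 5.53, 3.59 and 17.9 FPKM, under e12.4 at 3.46, 4 and 4.34, under e20.1 at 4.48, 2.81 and 4.51, and under e21.1 at 4.55, 4.89 and 15.1. The other 10 guide libraries were below all 6 controls and the 2 outlying libraries were above every other library. These were 3.44-fold (e12.3 replicate 3) and 2.82-fold (e21.1 replicate 3) above the other libraries of their groups on the FPKM + 1 scale. With all libraries weighted equally Kdm5b was not called, at -0.25 against Renilla (SE 0.34, 95% interval -0.97 to 0.47, limma adjusted p = 0.7) and -0.48 against mock (-1.19 to 0.24, limma adjusted p = 0.48).

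Without the 2 outlying libraries, Kdm5b averaged 4.22 ± 0.777 FPKM (n = 10) and fell by 0.53 on the log2 scale against Renilla (SE 0.13, limma adjusted p = 0.014) and by 0.75 against mock (SE 0.13, limma adjusted p = 0.0014). In that fit 2 of the 10 members were called, Kdm7a higher and Kdm5b lower, where 18.1% of all genes were called against Renilla (11% higher, 7.07% lower) and 16.3% against mock (9.95% higher, 6.31% lower). All 10 remaining guide libraries lay below the 6 controls for Kdm5b, as they did for 4.37% of tested genes, and above them for Kdm7a, as for 7.34%. The Kdm5b call against Renilla was lost without Renilla replicate 1 (limma adjusted p = 0.064) or 2 (0.053), while that against mock was kept without each of the 13 libraries in turn.

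By guide, still without the 2 libraries, Kdm5b was called lower than Renilla with e12.4 (-0.62, limma adjusted p = 0.024) and e20.1 (-0.63, limma adjusted p = 0.024), where 4.55% and 3.58% of all genes were called lower. These groups hold neither outlying library, and their changes were the same with all libraries (limma adjusted p = 0.46 and 0.49). Only the SE of the shared fit differed, at 0.43 with all libraries and 0.16 without the 2. The values were -0.46 with e12.3 (limma adjusted p = 0.2) and -0.40 with e21.1 (limma adjusted p = 0.22), each now with 2 libraries, beside 1.09% and 2.96% of genes called lower. Against mock it was called with e12.3 (limma adjusted p = 0.046), e12.4 and e20.1 (0.0038 each), beside 0.918%, 4.11% and 3.46% of all genes called lower, and e21.1 missed the threshold (0.051; 2.44%). Kdm5a, the other KDM5 member (chromosome 6, 120364124-120444574, plus strand), was at 29.0 to 31.3 FPKM in Renilla and 22.7 to 33.7 with the guides, which overlap, and its change was -0.11 (95% interval -0.31 to 0.09, limma adjusted p = 0.52).

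**Figure D3:**
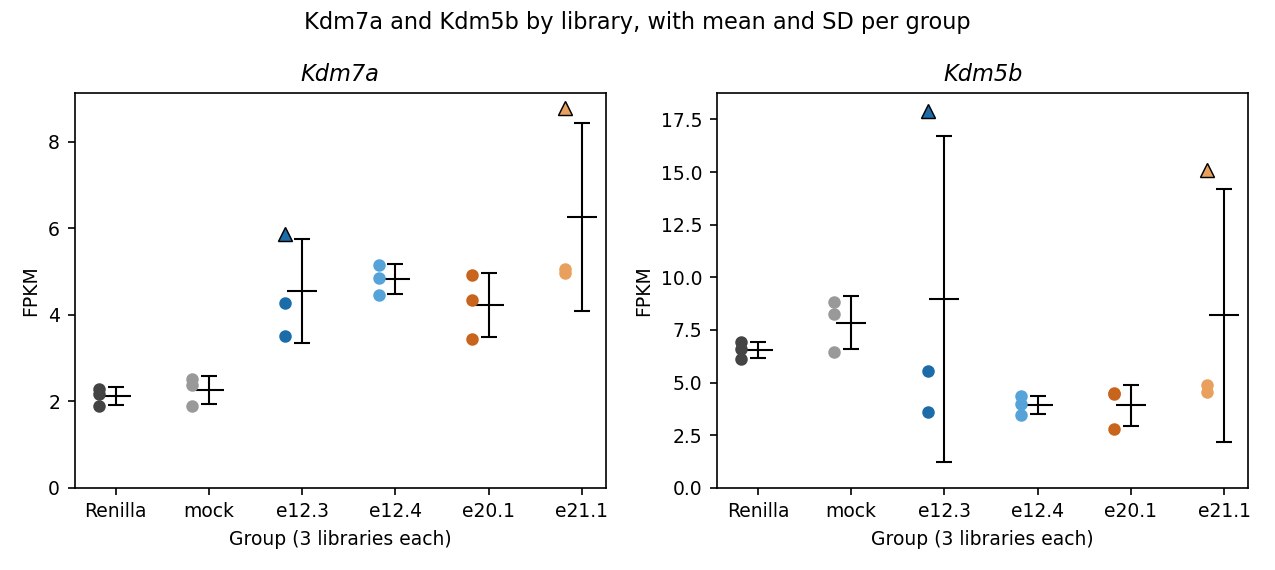
Kdm7a (left) and Kdm5b (right) in FPKM, with 1 point per library, triangles for replicate 3 of e12.3 and e21.1, and bars for the group mean and SD (n = 3). For Kdm7a every guide library is above the controls, and for Kdm5b 10 guide libraries lie at 2.81 to 5.53 while the triangles lie at 17.9 and 15.1.

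The 2 outlying libraries also stood apart for other members. Both were above all other 16 libraries for Kdm4a, Kdm4c, Kdm5b, Kdm6b, Kdm7a and Phf2, that is 6 of 10 members beside 15.9% of tested genes, and both were below them for Kdm5a, 1 of 10 beside 11.4%. Kdm6b was 0.77 and 0.75 higher in them than in the rest of their groups on the log2 scale, and Kdm4b 0.51 and 1.00 higher. Within the other groups e20.1 replicate 2 stood low: it was the lowest of the 18 libraries for 7 of the 10 members and for 18.5% of tested genes. The summed level of 7 primary granule genes (Mpo, Elane and others) was 5160 and 3940 FPKM in the outlying libraries, 1830 to 3240 in the other 10 guide libraries and 4610 to 5530 in the controls. Its part in the levels of Kdm5b and the other members was not tested.

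**Figure D4:**
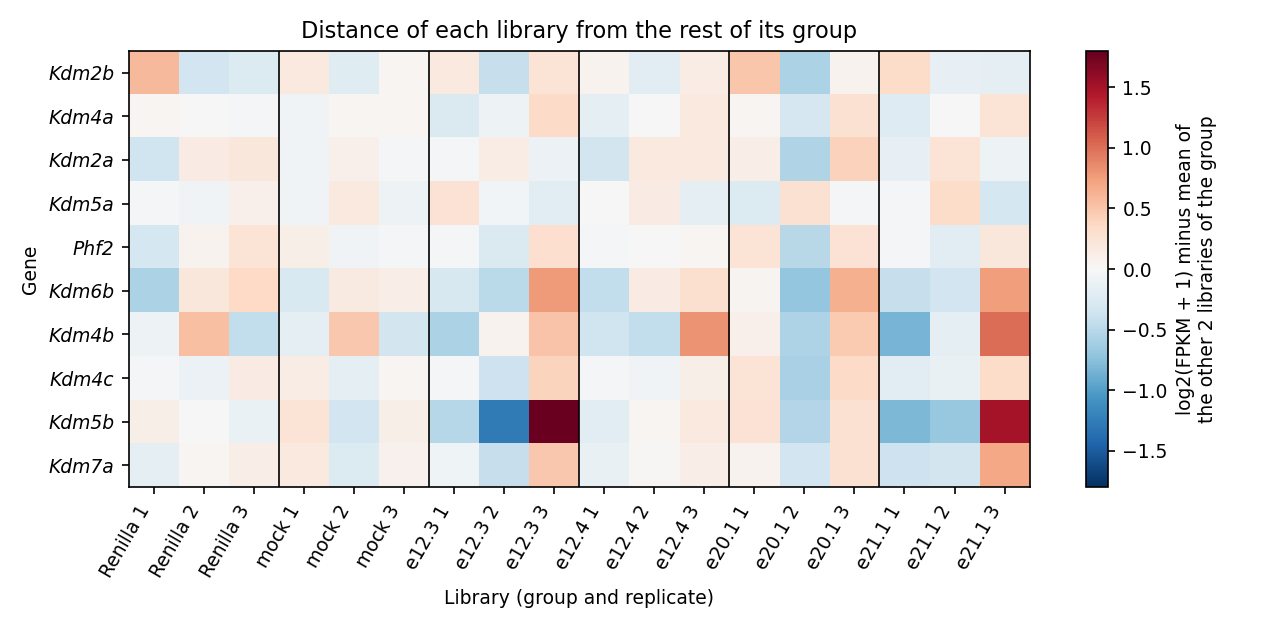
Difference of each library from the mean of the other 2 libraries of its group in log2(FPKM + 1), for the 10 genes (rows) and 18 libraries (columns, with lines between groups). Kdm5b has its highest differences in the 2 outlying libraries, e12.3 replicate 3 (1.78) and e21.1 replicate 3 (1.5), which are the largest of all, and e20.1 replicate 2 is below its group for 9 of the 10 genes.

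The KDM2 and KDM4 genes and Kdm6b were not called in any comparison with all libraries weighted equally. Kdm2b, which brings a variant Polycomb complex to CpG islands, was at 66.8, 42.9 and 45.1 FPKM in Renilla, at 43.8 to 53.0 in mock and at 29.3 to 51.0 with the guides. Its change was -0.27 against Renilla (95% interval -0.59 to 0.04, limma adjusted p = 0.28) and -0.22 against mock (limma adjusted p = 0.45), and 1 Renilla library, replicate 1, set the highest value: without that library the change was -0.08 (limma adjusted p = 0.85). Its relative Kdm2a was at 26.8 to 35.0 FPKM in Renilla and 20.7 to 35.3 with the guides (-0.10, 95% interval -0.35 to 0.15, limma adjusted p = 0.65). For both, guide and control libraries overlapped. On GRCm38, Kdm2a lies on chromosome 19 (4314419-4398285, minus strand) and Kdm2b on chromosome 5 (122870665-122989823, minus strand). Exons of Kdm2b overlap those of Rnf34 on the other strand and exons of Kdm5a those of Ccdc77. The library kit keeps strand, but no source used here states whether counting used it.

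Among the lysine 9 and 36 demethylases, Kdm4a was at 37.2 to 38.6 FPKM in Renilla and 28.3 to 42.6 with the guides (-0.13, 95% interval -0.33 to 0.07, limma adjusted p = 0.43). Kdm4b ran from 8.67 to 14.3 FPKM in Renilla and from 7.17 to 18 with the guides (-0.01, 95% interval -0.53 to 0.51, limma adjusted p = 0.98). Kdm4c was at 10.3 to 11.7 FPKM in Renilla and 7.45 to 14.3 with the guides (0.03, 95% interval -0.24 to 0.30, limma adjusted p = 0.92). The KDM4 genes lie on chromosome 4 (Kdm4a, 118136957-118180043, minus strand; Kdm4c, 74242497-74405860, plus strand) and chromosome 17 (Kdm4b, 56326062-56402870, plus strand). All 3 overlapped the controls, and the sign for Kdm4b and Kdm4c changed with the control or the libraries used. Kdm6b, a lysine 27 demethylase on chromosome 11 (69398508-69413675, minus strand) known from inflammatory myeloid cells, was at 8.89, 13.2 and 14.2 FPKM in Renilla and 6.75 to 19.5 with the guides, again overlapping (0.01, 95% interval -0.45 to 0.47, limma adjusted p = 0.99).

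The intervals show what sizes remain possible. Against Renilla, the 95% interval lay within a 1.5-fold change for 7 of the 10 members and within a 2-fold change for 9, and against mock within these bounds for 7 and 8. The median log2 fold change of the members was -0.06 against each control, beside -0.03 (Renilla) and -0.02 (mock) over all tested genes.

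**Figure D5:**
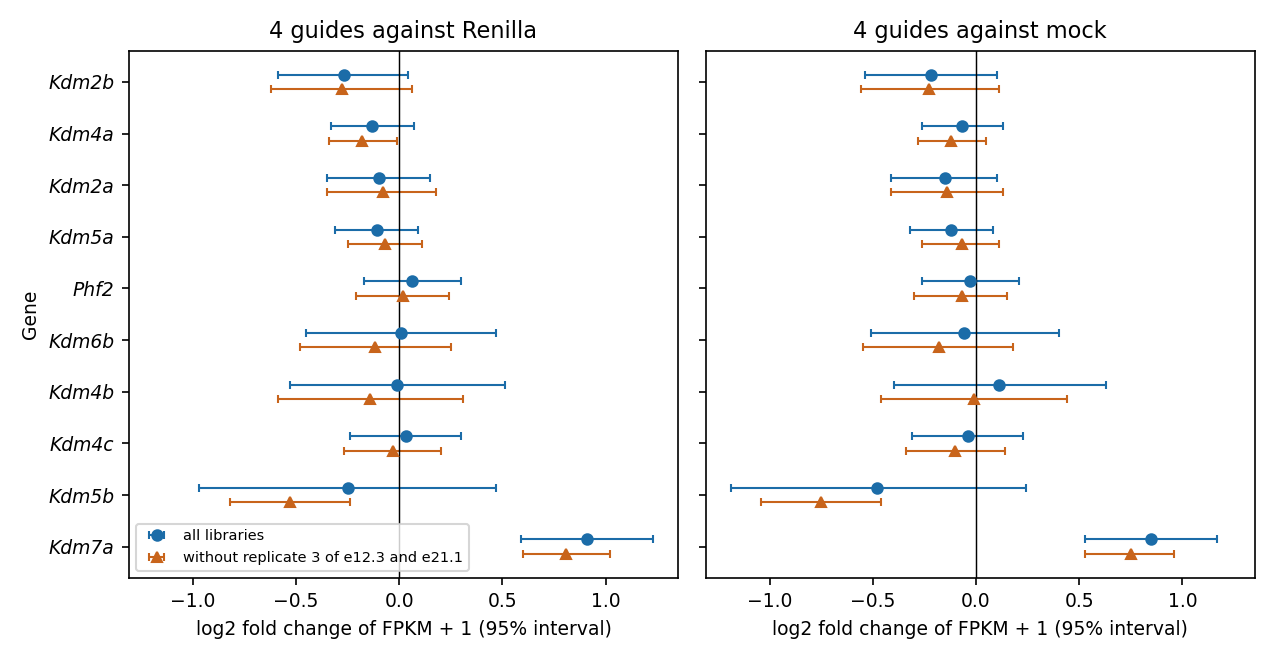
Log2 fold change of FPKM + 1 with its 95% interval for the 4 guides against Renilla (left) and mock (right), with circles for all libraries and triangles without replicate 3 of e12.3 and e21.1. Kdm7a lies above 0 in every case, Kdm5b moves from -0.25 to -0.53 against Renilla when the 2 libraries are left out, and with all libraries the other 8 intervals include 0.

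The remaining jumonji genes were described from lists chosen with earlier results of these data known. Of 17 such genes outside the members and the KDM3 family, 14 were tested, and 0 were called higher and 1 lower against Renilla (3.21% of all genes were called lower there and 2.16% against mock), with a median of -0.18. Without the 2 outlying libraries 2 were called lower against Renilla and 1 against mock, beside 7.07% and 6.31% of all genes. The gene called with all libraries was Kdm5c, the X-linked KDM5 paralog, which fell from 48.0 ± 2.51 FPKM (n = 3) to 38.6 ± 4.23 (n = 12; log2 fold change -0.31, limma adjusted p = 0.029). That call was lost without Renilla replicate 1 (0.14), 2 (0.11) or 3 (0.053), and against mock the change was not called (-0.23, limma adjusted p = 0.13). Jarid2, a catalytically inactive relative that works with Polycomb, had a change of -0.41 (limma adjusted p = 0.11), and Kdm8 one of -0.32 (limma adjusted p = 0.18). Kdm4d reached 0.0366 FPKM at most. In the KDM3 family, Kdm3a (-0.05) and Kdm3b (-0.20) were not called either, nor were the flavin demethylases Kdm1a (-0.03) and Kdm1b (-0.04).

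Among 21 tested genes of enzymes and core complex subunits that write the marks these genes remove, 1 was called against either control with all libraries: Suv39h2, which methylates histone H3 lysine 9. Of all genes 11% were called against Renilla and 9% against mock, so counts this low are not read as a result about these lists. Suv39h2 fell from 13.7 ± 1.47 FPKM in Renilla (n = 3) to 9.63 ± 0.967 with the guides (n = 12; -0.47, limma adjusted p = 7e-04). Against mock it fell by 0.33 (limma adjusted p = 0.012), and leaving out mock replicate 1 (0.099) or 3 (0.087) ended that call. The lysine 27 enzyme Ezh1 was at 8.51 ± 1.54 FPKM in Renilla and 11.4 ± 2.02 with the guides (0.39, limma adjusted p = 0.085). By list, 0 of 6 lysine 4, 1 of 6 lysine 9, 0 of 4 lysine 27 (with the Polycomb subunits Eed and Suz12 beside Ezh1 and Ezh2) and 0 of 5 lysine 36 genes were called, with medians of -0.17, -0.14, -0.06 and -0.07. With all libraries limma called none of the 9 tested partners of Kdm2b in its Polycomb complex (median -0.06). Nor did it call any of 8 TET, IDH and other 2-oxoglutarate enzyme genes (median -0.10). Without the 2 outlying libraries limma called 2 of 6 lysine 9 genes lower against Renilla and 1 against mock. It also called 1 of the 9 Kdm2b partners lower against each control and 0 in the other lists of this paragraph. Of all genes, 7.07% (Renilla) and 6.31% (mock) were called lower in those fits.

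Hypoxia response genes were included because jumonji demethylases need oxygen and several are themselves induced in hypoxia. Of 12 tested, 3 were called higher against Renilla and 2 against mock, where 7.77% and 6.84% of all genes were called higher. With all libraries 0 were called lower, beside 3.21% and 2.16% of all genes. The medians were 0.20 and 0.15, beside -0.03 and -0.02 over all genes. Among the genes not called against Renilla, Vegfa (0.07), Ldha (0.09), Pdk1 (0.07) and P4ha1 (0.08) differed little. Egln3 was at -0.40 (limma adjusted p = 0.16), and Pgk1 (0.29), Ankrd37 (0.34), Egln1 (0.23) and Mxi1 (0.18) were above 0. Ndrg1, a stress-responsive differentiation gene, rose from 5.15 ± 1.11 FPKM (n = 3) to 14.3 ± 4.41 (n = 12; 1.29, limma adjusted p = 0.00015; 1.54 against mock). Slc2a1, the glucose transporter GLUT1, rose from 36.9 ± 0.683 to 47.2 ± 4.26 FPKM (0.34, limma adjusted p = 0.012). Leaving out Renilla replicate 2 (0.055) or 3 (0.056) ended that call, while the call against mock was kept in all 15 such fits. The mitophagy gene Bnip3 was called against Renilla (0.62, limma adjusted p = 0.045) but lost in 8 of 15 fits that left out 1 library, and was not called against mock (0.57, limma adjusted p = 0.08). Without the 2 outlying libraries it was called against Renilla (0.48, limma adjusted p = 0.0044) and mock (0.42, limma adjusted p = 0.011). In those fits 3 of the 12 hypoxia response genes were called higher and 1 lower against each control. Of all genes, 11% were then called higher and 7.07% lower against Renilla, and 9.95% and 6.31% against mock.

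Markers of myeloid maturation moved in the same comparison, where 7.77% of all genes were called higher and 3.21% lower. Of 13 tested monocyte markers 8 were called higher against Renilla and 0 lower (median 1.09), and their summed level was 1030 to 1210 FPKM in controls and 1060 to 1610 with guides. Of 12 mature neutrophil markers 4 were called higher and 0 lower (median 0.92), with sums of 422 to 511 FPKM in controls and 631 to 1450 with guides. Most of the Renilla sum was again 1 gene, Hp, at 323 ± 53.9 FPKM there and 592 ± 119 with the guides. In the primary granule list limma called 5 of 7 tested genes lower and 0 higher (median -0.70), with sums of 4610 to 5530 FPKM in controls and 1830 to 5160 with guides. Against mock the counts were 8 of 13 and 6 of 12 higher and 5 of 7 lower, beside 6.84% and 2.16% of all genes. Without the 2 outlying libraries they were 9 and 6 higher and 6 lower against Renilla, and 9, 7 and 6 against mock, and 1 mature neutrophil marker was then called lower against each control. Of 2 tested erythroid, 1 lymphoid and 2 stromal or endothelial markers, 0, 0 and 1 were called, the last being Pecam1, which leukocytes also express (6.98 ± 0.735 in Renilla, 12.1 ± 1.8 FPKM under the guides; 0.70, limma adjusted p = 0.00073). Without the 2 outlying libraries 1 erythroid marker was also called higher against mock, beside 9.95% of all genes. Summed lymphoid markers were at 1.26 to 2.89 FPKM over all libraries. The erythroid list summed to 109 to 137 FPKM in controls and 65.5 to 148 with guides, of which Tfrc, the transferrin receptor that dividing cells also use, made 125 ± 8.05 in Renilla and Gata1 3.5 ± 1.04. The stromal and endothelial list summed to 10.7 to 15.1 FPKM in controls and 14.2 to 21.9 with guides. The part of these maturation markers in the rise of Kdm7a was not tested, and in bulk RNA fewer cells of a type and less RNA per cell cannot be told apart.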

How the data were processed

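The authors deposited FPKM values per gene for 18 libraries (23899 genes); separate tables for 15 libraries hold the same member values within 5e-09. Per the submitters' processing notes, bcl2fastq 2.22.0.422, Salmon 0.13.0, DESeq2 1.22.1 and R 3.5.3 were used with mm10; their order is not given. Per the labels, libraries were made from poly(A) RNA with a directional kit. The values are not counts, so no count test was run.

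Values were taken as log2(FPKM + 1). Genes whose mean reached 1 FPKM (11550) entered 1 limma-trend fit of 6 group means, with the 4 guides weighted equally (R 4.3.3, limma 3.58.1). Calls were made where the p, adjusted by Benjamini and Hochberg over the whole fit, was under 0.05. Single members were also compared by exact two-sided permutation. Depth was estimated from the steps of low FPKM values of 812 single-transcript genes no shorter than 3000 bases, where 98.2 to 100.0% of low values lay within 0.1 of a whole number of reads. Gene positions are from GENCODE vM21 (GRCm38). Python 3.11.15 with pandas 2.3.3 and matplotlib 3.10.9 made the tables and figures. The fit was tested on simulated data.

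The members and lists were chosen with earlier results of these data known. All 10 members are named. Of each other list, at most 4 genes with the smallest p, and any called gene where 5 or fewer were called, were eligible to be named. Genes that identify a cell type by their absence, Kdm4d, Hoxa9, Meis1, Ly6c2, the tested hypoxia response genes and overlapping genes were named outside that rule. Alternatives were a pseudocount of 0.1, no filter, 5 FPKM in at least 3 libraries, fewer groups, the replicate number as a block, array quality weights, upper-quartile scaling, both controls together, and libraries or guides left out. The fit without Renilla replicate 1 and e20.1 replicate 2 together, the list counts without the 2 outlying libraries, and the comparison of Kdm7a with Phf2, were chosen after seeing the data.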

Additional observations from a re-analysis of the deposited data

How the results depend on the processing

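The call of Kdm7a against Renilla was kept in all 29 alternatives (log2 fold change 0.81 to 1.16) and against mock in all 28 (0.75 to 1.07), and in those fits Kdm2a, Kdm2b, Kdm4b, Kdm4c, Kdm5a, Kdm6b and Phf2 were called in 0. The fit with 5 FPKM in at least 3 libraries adds no support for Kdm7a. Its level reached 2.52 FPKM at most in the controls, so it passed that filter only through guide libraries. With array quality weights 3 members were called against Renilla (4864 of 11550 tested genes) and 2 against mock (3493 genes): Kdm5b (-0.39, limma adjusted p = 0.02, and -0.63, 0.0038) and, against Renilla, Kdm4a (-0.15, 0.014) were added. In both comparisons the share of members called was below that of all genes. For single guides these weights gave 2 (e12.4) and 3 (e20.1) against Renilla and 2 each against mock. The shares of all genes called in these single-guide fits are not given, so these counts are not read as a result. Without replicate 3 of e12.3 and e21.1, 2 members were called against Renilla (2085 genes) and mock (1878 genes), and 2 with e12.4 and e20.1 against each control and with e12.3 against mock. With both controls together 2109 genes were called. Without Renilla replicate 1 and e20.1 replicate 2, 0 were called with e12.3 and e20.1 against Renilla. With e12.3, 0 were called without a filter against either control, with only the groups compared against either control, and with 5 FPKM in at least 3 libraries or upper-quartile scaling against mock; without a filter, e20.1 also gave 0 against Renilla. With only the groups compared, e12.4 gave 2 against each control and e20.1 gave 2 against mock, and a pseudocount of 0.1 gave 1 for e20.1 against mock. For these fits too the share of all genes called is not given, so the counts cannot be set against a background. The cause of these shifts was not tested.

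Leaving out each library in turn gave 814 to 1502 called genes against Renilla and 580 to 1273 against mock, always with 1 member. The count fell by over 1.5 times without Renilla replicate 1 (814) or 2 (828) and, against mock, without mock replicate 1 (649), 2 (580) or 3 (589). It gave 0 to 1 members for e12.3 and e20.1 against Renilla and for e12.3 and e12.4 against mock. The signs that turned were of values near 0 that were not called. Over the fits that left out 1 library, Kdm4b ran from -0.16 to 0.17, Kdm4c from -0.01 to 0.08, Kdm6b from -0.18 to 0.13 and Phf2 from -0.04 to 0.15 against Renilla; against mock Kdm4c and Phf2 reached 0.01 from -0.10 and -0.05. Elsewhere Kdm4b reversed to 0.05 without guide e12.4 or with both controls, to 0 with upper-quartile scaling or without Renilla replicate 1 and e20.1 replicate 2, and to -0.01 against mock without the 2 outlying libraries. Kdm4c reversed to -0.01 without guide e21.1 or with both controls, to -0.03 without the outlying libraries, and against mock to 0 without guide e20.1. Kdm6b reversed to -0.19 with array weights, -0.03 and -0.04 without guide e12.3 or e21.1, -0.02 with both controls, -0.12 without either pair of libraries, and 0.04 against mock without guide e20.1. Phf2 reversed to 0 against Renilla and 0.01 against mock without Renilla replicate 1 and e20.1 replicate 2, and to 0.02 against mock without guide e20.1; Kdm4c reached 0.01 against mock in the former fit.

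Replicate numbers did not meet the rule for pairing, a correlation above 0.1 in every same-numbered pair: the median was 0.12 (lowest -0.25), above 0.1 in 26 of 45 pairs, beside -0.04 and 11 of 90 for other numbers. As a hint from the data and not the design, 17 of 18 libraries correlated best with their own number. With the replicate number as a block, the members called went from 0 to 1 for e20.1 against mock and did not move elsewhere, and 1809 and 1460 genes were called against Renilla and mock. Depth is an estimate, and with 3 libraries per group small changes of the 8 members that were never called without weights cannot be told from 0.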
